A study of Homo sapiens with 12 samples.

Results

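Kinesins are motor proteins that walk along microtubules or take them apart, using ATP. The kinesins described here are the 42 genes, of 22257 genes in the deposited tables, whose symbol begins with KIF and a number or is KIFC1, KIFC2 or KIFC3, each represented by 1 protein-coding RefSeq transcript. Of these, 11 were set apart by name as mitotic motors: KIF2C, KIF4A, KIF11, KIF14, KIF15, KIF18A, KIF20A, KIF20B, KIF22, KIF23 and KIFC1. The choice was made with earlier results of these data known. The other 31 are called the rest. They hold the cargo motors, such as KIF5A, KIF5B and KIF5C, but not only these: KIF2A, KIF2B, KIF4B and KIF18B also act in cell division and KIF24 acts at centrioles, so the rest is a mixed group rather than a list of transport motors. CENPE, a kinetochore kinesin with a symbol of another form, was placed among the partners of mitotic motors.

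The RNA came from the established human glioblastoma line LN229, kept for 24 hours at 80% confluence in RPMI with 10% dialyzed serum. Glucose stood at 10 mM, at 1 mM with 5 mM acetate added, or at 1 mM alone, and each condition has 4 libraries. All 3 groups share the cell line, the serum and the time, and no label says whether the replicates were separate cultures. A p therefore reflects the spread of these particular samples, which may be technical. The questions are which kinesin transcripts follow the supply of glucose, and which respond to acetate, another source of acetyl-CoA, at low glucose.

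Mitotic kinesins build the spindle, move and align chromosomes, correct their attachment to microtubules and split the cell at cytokinesis. Many of their genes are known to be transcribed mainly in the G2 and M phases of the cell cycle, through promoter elements called the CHR (cell cycle genes homology region) and the CCAAT box. Transport kinesins carry vesicles, mitochondria, endosomes and ciliary components, mostly with light chains or adaptors that bind the cargo, and are needed in cells that do not divide as well.

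The libraries held 24.4 to 27.2 M counts (M, mega), of which kinesins took 0.193% to 0.386%. Levels are CPM (counts per megacount) after TMM scaling, which corrects for differences in composition between libraries. The glioma and glial markers VIM, NES, CD44, S100B and SOX2 were present, while the astrocyte marker GFAP averaged 0.848 ± 0.0925 CPM in the 10 mM libraries, 1.14 ± 0.278 CPM in those with acetate and 0.980 ± 0.282 CPM in those with 1 mM alone (SD, n = 4 each). The 8 glioma and glial markers listed are these 6 with OLIG2 and PDGFRA. Of the 8, 4 were called higher and 3 lower at 10 mM glucose than at 1 mM. Over all genes tested 33.7% were called higher and 33.8% lower in this comparison, so such calls are common. The blood marker PTPRC, the endothelial marker PECAM1 and the neuron marker RBFOX3 were too low to test. The other neuron markers were detected: SYT1 averaged 26.6 ± 1.97 CPM at 10 mM, 108 ± 6.76 CPM with acetate and 114 ± 13.4 CPM at 1 mM alone, and SNAP25 16.5 ± 0.680 CPM at 10 mM, 11.1 ± 0.418 CPM with acetate and 8.95 ± 0.439 CPM at 1 mM alone. SYT1 was called lower and SNAP25 higher at 10 mM than at 1 mM glucose, and the part of these markers in the kinesin results was not tested. A pair of libraries, replicate 1 with acetate and replicate 3 at 1 mM glucose, stood apart. Their deviation from the mean of all 12 libraries had a Spearman correlation with transcript length of −0.481 and −0.486. This correlation was taken over genes, which do not count as replicates. In the remaining 10 libraries it ran from −0.178 to 0.228, and in the 4 at 10 mM glucose from 0.11 to 0.228. In the same pair of libraries the rest of the kinesins deviated from their group means by −0.229 and −0.162 log2 units on average, and the mitotic motors by −0.099 and −0.028. Kinesin calls that change without 1 or both of these libraries are given in the comparison they belong to.

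At 10 mM glucose all 11 mitotic kinesins were higher than at 1 mM, by 1.41- to 4.11-fold, while the rest changed in both directions or not detectably. Genes were tested with edgeR's quasi-likelihood test over 14416 genes and called at a Benjamini-Hochberg adjusted p under 0.05. In this comparison 33.7% of all genes tested were called higher and 33.8% lower, 67.5% in all, so a call by itself is common. Of the mitotic motors 11 of 11 were called higher, with a median log2 fold change of 1.29 and a range of 0.49 to 2.04. Of the 25 tested members of the rest 10 were called higher, 4 lower and 11 not called, with a median of 0.12 and a range of −1.36 to 1.22. The median over all genes tested was 0.00. For all 11 mitotic motors the 4 libraries at 10 mM glucose lay above the 4 at 1 mM, as they did for 31.1% of all genes, and in 30.3% they lay below. All 11 kept their call under each of the 24 alternative settings tried. Without TMM scaling the median of all genes moved to 0.14 and 63.3% of calls were higher, against 49.9% with it, and the rest of the kinesins then had 13 called higher and 3 lower.

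**Figure D1:**
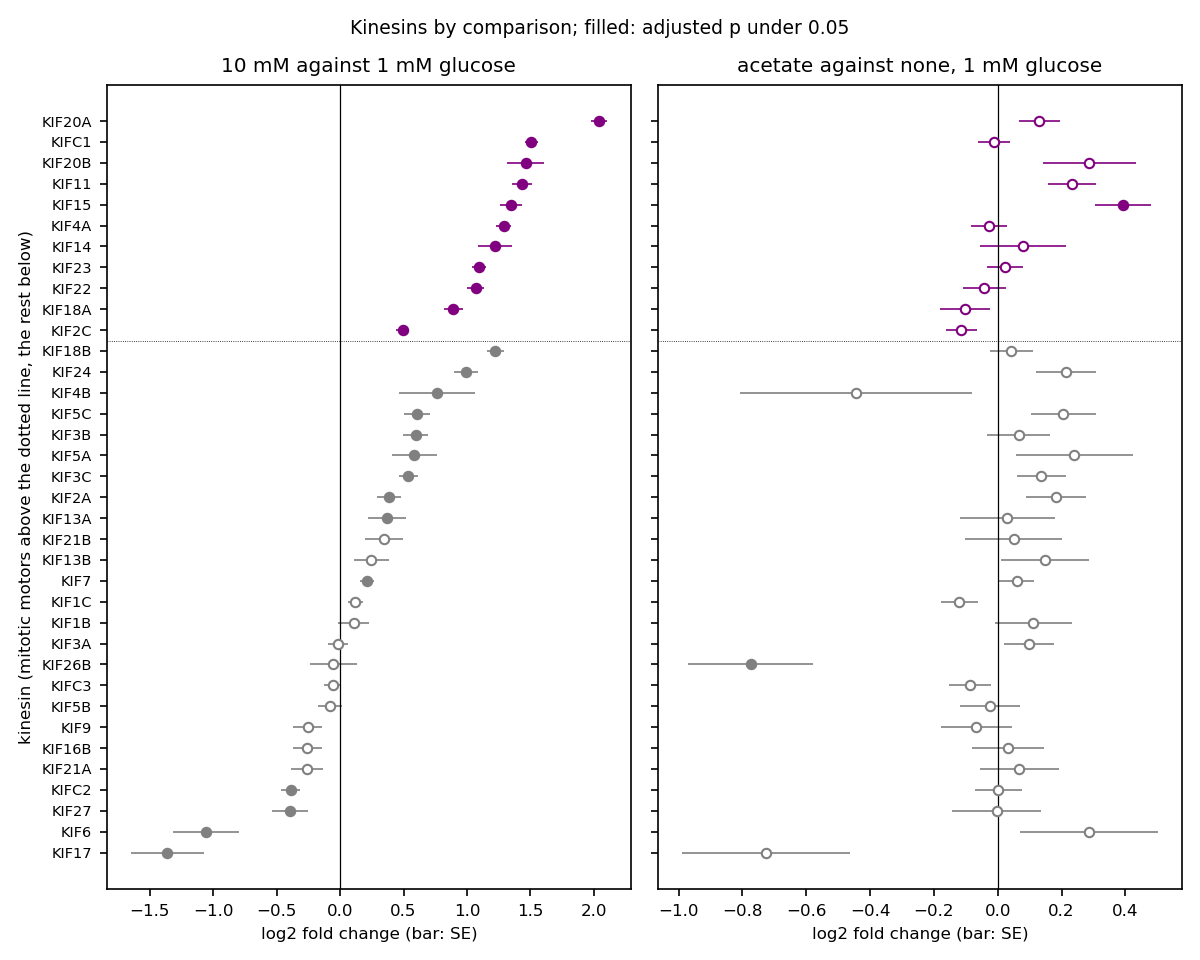
Log2 fold changes of the 36 tested kinesins (points, with SE as bars), for 10 mM against 1 mM glucose at left and for acetate against none at right, where the horizontal axes differ in scale. Mitotic motors are purple and above the dotted line, and the rest grey and below it. Filled points are called at an adjusted p under 0.05: all 11 mitotic motors are filled at left, at 0.49 to 2.04, and KIF15 alone of them at right.

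The motors of cytokinesis held the largest and some of the middle changes. KIF20A, which brings the chromosomal passenger complex to the central spindle, had 326, 309, 301 and 309 CPM in replicates 1 to 4 at 10 mM glucose, against 69.8, 76.9, 84.2 and 72.0 CPM at 1 mM. The groups lay far apart, and the log2 fold change was 2.04 ± 0.07 (SE, adjusted p = 1.81e-12), the highest of the 36 tested. KIF23, which forms the centralspindlin complex with RACGAP1, had 223, 233, 227 and 237 CPM at 10 mM glucose and 102, 109, 106 and 114 CPM at 1 mM. Its libraries were even within each group, and its log2 fold change was 1.10 ± 0.06 (adjusted p = 3.02e-10). KIF14, which works with citron kinase at the midbody, had 146, 174, 146 and 131 CPM at 10 mM glucose and 61.8, 80.9, 50.8 and 62.4 CPM at 1 mM. KIF20B, also needed to complete cytokinesis, had 131, 173, 141 and 139.7 CPM at 10 mM and 46.4, 69.4, 43.4 and 52.8 CPM at 1 mM. Both varied more than the other mitotic motors, with replicate 2 highest in each group, and still did not overlap. Their log2 fold changes were 1.22 ± 0.13 for KIF14 (adjusted p = 1.26e-06) and 1.46 ± 0.15 for KIF20B (adjusted p = 4.29e-07).

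The motors that set up the spindle rose by similar amounts. KIF11, a four-headed motor that slides antiparallel microtubules apart to separate the spindle poles, had 250.1, 275, 252 and 252 CPM at 10 mM glucose and 88.3, 106, 88.4 and 98.2 CPM at 1 mM. Replicate 2 was the highest of its group at both concentrations, and the groups were well apart, with a log2 fold change of 1.43 ± 0.08 (adjusted p = 4.57e-10). KIF15, which can hold the poles apart beside KIF11, had 90.0, 94.5, 88.2 and 92.8 CPM at 10 mM glucose and 34.1, 41.4, 32.9 and 35.2 CPM at 1 mM. Its log2 fold change was 1.35 ± 0.09 (adjusted p = 4.1e-09), with no overlap. KIFC1 moves towards minus ends and gathers spindle poles together, and had 161, 151, 161 and 156 CPM at 10 mM glucose, against 54.9, 52.3, 59.2 and 54.8 CPM at 1 mM. This was the second highest change, 1.51 ± 0.05 (adjusted p = 3.25e-12), in libraries that differed little within a group.

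The motors that act on chromosomes and kinetochores held the 3 smallest changes of the 11. KIF4A, a chromokinesin that limits microtubule overlap in the central spindle together with PRC1, had 143, 144, 135 and 144 CPM at 10 mM glucose and 56.0, 57.7, 59.8 and 58.0 CPM at 1 mM. Its log2 fold change was 1.29 ± 0.06 (adjusted p = 5.26e-11). KIF22, which pushes chromosome arms towards the spindle equator, had 131, 128, 134 and 132 CPM at 10 mM glucose and 57.2, 57.3, 71.7 and 63.5 CPM at 1 mM, with replicate 3 the highest at 1 mM. Its log2 fold change was 1.07 ± 0.07 (adjusted p = 2.79e-09). KIF18A, which damps the movement of chromosomes at the metaphase plate, had 49.7, 56.2, 49.3 and 47.7 CPM at 10 mM glucose and 24.1, 30.5, 26.2 and 28.5 CPM at 1 mM. At 0.89 ± 0.08 (adjusted p = 9.49e-08) its change was smaller than those of the motors above. KIF2C, a depolymerase that frees wrongly attached kinetochores, had 192, 199, 194 and 205 CPM at 10 mM glucose and 136, 140.1, 146 and 139 CPM at 1 mM. It had the lowest change of the 11, 0.49 ± 0.05 (adjusted p = 3.48e-07), although no library at 1 mM reached any at 10 mM.

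**Figure D2:**
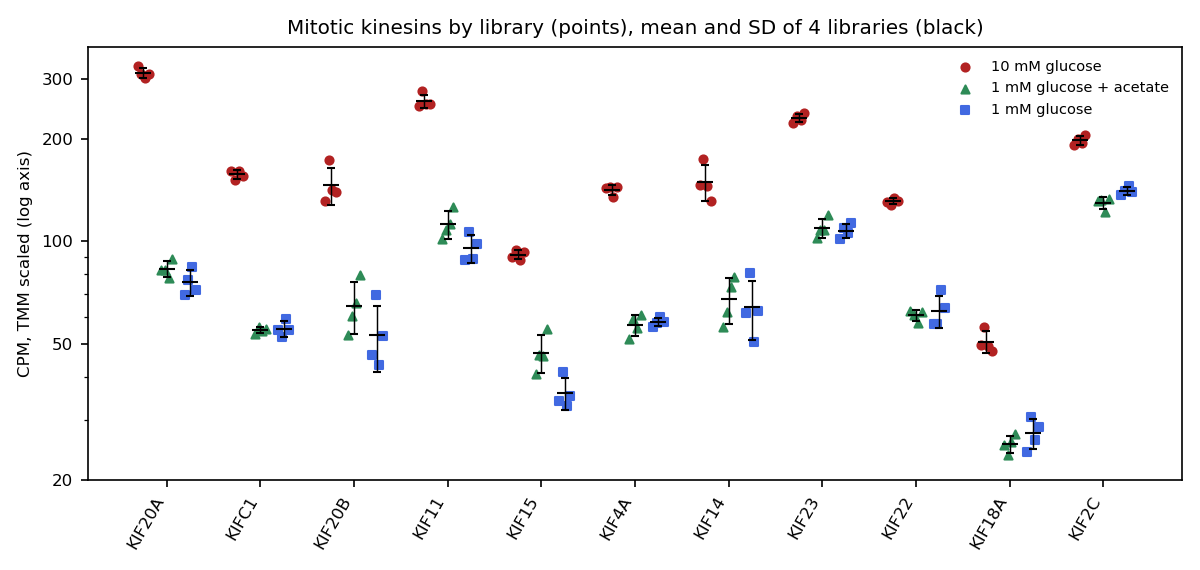
Level of the 11 mitotic motors in each of the 12 libraries (points; CPM on a log axis), with mean and SD of 4 libraries in black, in the order of their glucose fold change. The 10 mM glucose points lie above all others for each gene, from 301 to 326 CPM for KIF20A and from 192 to 205 CPM for KIF2C, while the acetate and 1 mM points lie close together.

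Dividing-cell markers moved in the same direction. All 7 of MKI67, TOP2A, PCNA, CCNA2, CCNB1, CDK1 and MCM2 were called higher at 10 mM than at 1 mM glucose, against 33.7% of all genes. The 7 had a median log2 fold change of 1.24. MKI67 averaged 1233 ± 100.3 CPM at 10 mM glucose and 299.5 ± 55.0 CPM at 1 mM, TOP2A 849 ± 45.7 CPM at 10 mM, against 267 ± 34.1 CPM at 1 mM, and PCNA 384 ± 13.3 CPM at the higher glucose, against 168 ± 20.8 CPM at the lower (SD, n = 4 each). In bulk RNA a larger share of dividing cells and more RNA per dividing cell cannot be told apart, and the part of these markers in the kinesin result was not tested.

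The promoters of the mitotic motors are shown because these genes moved together with glucose, and because the letters of the CHR and the CCAAT box could be looked for in them. RefSeq windows of 250 bases before to 50 bases after a transcript start, on GRCh38.p14 and so on another build than the hg19 counts, were found for 34 of the 42 kinesins, all 11 mitotic motors among them. The 100 bases before the start are printed 5′ to 3′ on the strand of the gene, with capitals for CHR letters (TTTGAA or TTTAAA) and CCAAT letters on either strand, where TTCAAA and ATTGG are the other-strand forms. KIF20A (chr5:138179012-138179111, + strand), KIF11 (chr10:92593030-92593129, + strand), KIF4A (chrX:70290004-70290103, + strand), KIF18A (chr11:28108157-28108256, - strand) and KIF23 (chr15:69414249-69414348, + strand) hold both elements in this stretch, KIF22 (chr16:29790651-29790750, + strand) is the mitotic motor with no CHR letters in either of its windows, of which the upstream one is printed, and KIF5B (chr10:32056426-32056525, - strand) is a transport motor whose level did not change detectably and whose CHR letters lie further upstream.
KIF20A: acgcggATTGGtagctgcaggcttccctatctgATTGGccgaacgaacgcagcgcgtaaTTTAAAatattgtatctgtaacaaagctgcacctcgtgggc
KIF11: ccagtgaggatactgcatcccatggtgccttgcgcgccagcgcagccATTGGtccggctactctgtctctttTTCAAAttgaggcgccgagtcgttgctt
KIF4A: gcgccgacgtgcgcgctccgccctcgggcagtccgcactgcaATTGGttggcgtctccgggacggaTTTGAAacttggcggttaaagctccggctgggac
KIF18A: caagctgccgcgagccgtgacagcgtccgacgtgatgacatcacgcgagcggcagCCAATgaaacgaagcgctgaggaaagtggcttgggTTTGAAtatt
KIF23: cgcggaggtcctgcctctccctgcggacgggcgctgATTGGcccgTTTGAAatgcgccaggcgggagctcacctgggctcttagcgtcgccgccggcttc
KIF22: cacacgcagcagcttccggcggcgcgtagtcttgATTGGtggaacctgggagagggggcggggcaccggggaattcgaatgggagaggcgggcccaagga
KIF5B: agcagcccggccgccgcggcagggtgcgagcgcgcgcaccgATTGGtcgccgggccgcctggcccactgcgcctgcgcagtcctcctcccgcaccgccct

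CHR letters were in the windows of 10 of 11 mitotic motors (90.9%), 4 of 23 members of the rest (17.4%) and 27.9% of the 27305 genes in the table. CCAAT letters were in 9 of 11 mitotic motors (81.8%), 9 of 23 of the rest (39.1%) and 39.7% of all genes, and KIF15 and KIF2C were the mitotic motors without them. E2F letters (TTTGGCGC, TTTCGCGC or TTTCCCGC, both strands), an element of genes transcribed at the G1 to S transition, were in 1 mitotic motor, KIF15, in 1 of the rest, KIF25, and in 3.3% of all genes. Both CHR and CCAAT letters with first bases at most 40 bases apart, a limit set after the positions were seen, were in 6 of 11 mitotic motors (54.5%), 2 of 23 of the rest (8.7%) and 4.41% of all genes. The distance was 26 bases in KIF20A, 25 in KIF11, 24 in KIF4A, 23 in KIF14, 35 in KIF18A and 9 in KIF23. The members of the rest with such a pair were KIF18B, at 34 bases, and KIF4B, at 24 bases, both with known roles in division. KIF4B is a near-identical copy of KIF4A, whose pair has the same distance and strands, so its pair may not be a separate case. KIF2A and KIF24 had no CHR letters in their windows. The mitotic motors were chosen for their role, with earlier results of these data known, and all moved together. These shares therefore only describe them, and a match of letters is not evidence of binding. The CHR counts cover only the spellings searched, TTTGAA and TTTAAA, and other spellings could change them.

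**Figure D3:**
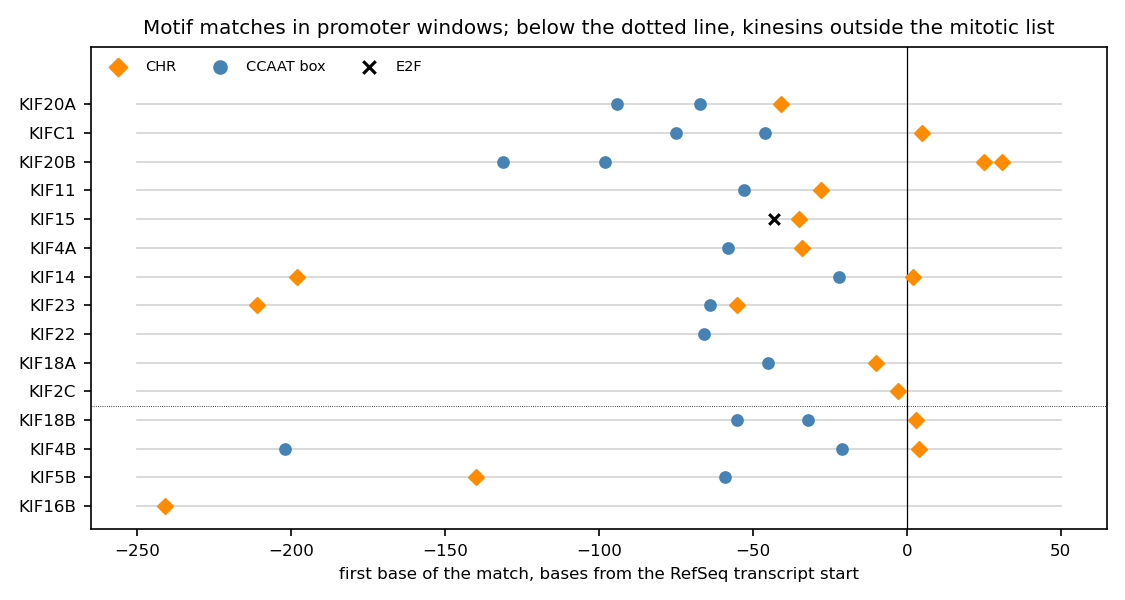
Position of CHR (diamonds), CCAAT (circles) and E2F (crosses) letters in the RefSeq windows of the 11 mitotic motors and of the 4 members of the rest with CHR letters, in bases from the transcript start (vertical line). In 6 of the mitotic motors, and in KIF18B and KIF4B below the dotted line, a CHR and a CCAAT match lie at most 40 bases apart.

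Within the rest, the kinesins with a known part in division or at centrioles were among those that rose with glucose. KIF18B, which with KIF2C shortens astral microtubules, had 119, 118, 120.0 and 115 CPM at 10 mM glucose and 51.2, 53.0, 46.8 and 51.3 CPM at 1 mM. The groups were far apart and the log2 fold change was 1.22 ± 0.07 (adjusted p = 6.18e-10), the highest of the rest. KIF24, which removes cilia by remodelling microtubules at the mother centriole, had 32.3, 33.9, 30.4 and 29.1 CPM at 10 mM glucose, against 16.2, 16.5, 14.7 and 15.7 CPM at 1 mM, for a log2 fold change of 0.99 ± 0.09 (adjusted p = 2.02e-07). KIF2A, a depolymerase that acts at spindle poles and in growing neurites, had 71.1, 79.5, 71.1 and 74.9 CPM at 10 mM glucose and 57.8, 64.8, 45.4 and 59.5 CPM at 1 mM. It changed by 0.38 ± 0.09 (adjusted p = 0.00229), without overlap, although replicate 2 at 1 mM came close. KIF4B is a near-identical copy of KIF4A and had 135 counts in all 12 libraries, so its values may include reads of KIF4A and are uncertain. It had 0.503, 0.726, 0.474 and 0.837 CPM at 10 mM glucose and 0.204, 0.452, 0.546 and 0.285 CPM at 1 mM, overlapping groups with a log2 fold change of 0.76 ± 0.30 (adjusted p = 0.0366), a call lost in 7 of the 23 alternatives that tested it (adjusted p 0.011 to 0.118), among them leaving out replicate 1 or 4 at 1 mM or replicate 2 or 4 at 10 mM. KIF2B, a testis-enriched depolymerase, had 1 count in all. With KIF2A, KIF2B, KIF4B and KIF18B moved to the mitotic motors, 14 of 14 tested mitotic motors were called higher, and 7 of the remaining 22 higher and 4 lower. Over all genes tested 33.7% were called higher and 33.8% lower. KIF2A, KIF4B and KIF18B had each been called higher before the move, so the count of 14 follows from the calls above.

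The kinesin-1 heavy chains, the motors that carry mitochondria, vesicles and RNA granules away from the cell centre, did not move alike. KIF5B, the form found in most tissues, had 432, 466, 431 and 429 CPM at 10 mM glucose and 474, 541, 372 and 469 CPM at 1 mM. The groups overlapped, with replicate 3 lowest and replicate 2 highest at 1 mM, and the log2 fold change was −0.08 ± 0.09 (adjusted p = 0.479). Without replicate 3 at 1 mM, which stood apart, it was −0.17 with an adjusted p of 0.0455. Without both libraries that stood apart it was −0.17 (adjusted p = 0.00607). After the trend over transcript length and GC content was removed it was −0.16 (adjusted p = 0.00134). KIF5B was therefore called lower under 4 of the 24 alternatives. The forms known for their high levels in neurons were both higher at 10 mM glucose. KIF5C had 58.9, 61.8, 56.4 and 62.0 CPM at 10 mM, against 45.0, 43.1, 31.6 and 37.6 CPM at 1 mM, for a log2 fold change of 0.61 ± 0.10 (adjusted p = 9.53e-05). KIF5A had 13.9, 11.2, 11.9 and 11.2 CPM at 10 mM and 9.24, 10.2, 5.62 and 7.02 CPM at 1 mM, a change of 0.59 ± 0.18 (adjusted p = 0.00961), also without overlap. Per kb of transcript KIF5B made up 87.5 ± 0.478% of the CPM of the 3 genes at 10 mM glucose, 90.5 ± 0.567% in the acetate group and 91.8 ± 0.632% at 1 mM (SD, n = 4 each), so it was the main form throughout.

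The kinesin-2 motors carry components along cilia and vesicles in the cytoplasm, as a dimer of KIF3A with KIF3B or KIF3C, or as KIF17 by itself. KIF3B had 176, 168, 165 and 171 CPM at 10 mM glucose, against 118, 125, 95.0 and 112 CPM at 1 mM, for a log2 fold change of 0.60 ± 0.10 (adjusted p = 8.21e-05). KIF3C had 49.6, 45.4, 45.5 and 45.3 CPM at 10 mM and 31.3, 31.9, 34.8 and 30.0 CPM at 1 mM, a change of 0.54 ± 0.08 (adjusted p = 1.74e-05). Both were higher in every library at 10 mM, whereas KIF3A, their shared partner, overlapped between groups. KIF3A had 57.2, 62.1, 53.8 and 57.5 CPM at 10 mM and 62.2, 63.9, 49.2 and 58.5 CPM at 1 mM, a change of −0.02 ± 0.08 (adjusted p = 0.84). After the trend over transcript length and GC content was removed KIF3A was called lower, at −0.12 (adjusted p = 0.0086). KIFAP3, the accessory subunit that joins this dimer to cargo, had a mean of 60.9 ± 1.87 CPM at 10 mM and of 61.2 ± 2.32 CPM at 1 mM and was not called (−0.01 ± 0.05, adjusted p = 0.917). KIF17 had the lowest change of the 36 tested, −1.36 ± 0.29 (adjusted p = 0.000707), but on few counts. Its libraries had 10, 6, 7 and 9 counts at 10 mM glucose and 20, 19, 20 and 17 counts at 1 mM, without overlap.

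The other called members of the rest changed by smaller amounts or at low levels. KIF6, known for a role in the cilia of the brain's ependymal cells in mice and zebrafish, had 9, 14, 14 and 9 counts at 10 mM glucose and 22, 18, 23 and 25 counts at 1 mM, a log2 fold change of −1.06 ± 0.26 (adjusted p = 0.00224). KIFC2, a minus-end motor described in mouse neurons, had 15.6, 15.2, 15.2 and 14.4 CPM at 10 mM and 20.9, 19.6, 18.8 and 19.8 CPM at 1 mM, lower by −0.39 ± 0.07 (adjusted p = 0.000278) with no overlap. KIF27, a relative of KIF7, had 3.44, 3.56, 2.95 and 2.51 CPM at 10 mM and 4.11, 4.93, 3.35 and 4.00 CPM at 1 mM, overlapping groups with −0.39 ± 0.15 (adjusted p = 0.0263). This call was lost without replicate 2 at 1 mM (0.089) or replicate 3 (0.0607) or 4 (0.0878) at 10 mM, in each case an adjusted p, and with library totals (0.134). KIF7, a regulator of Hedgehog signalling at the tip of the cilium, had 43.9, 46.8, 44.9 and 42.4 CPM at 10 mM and 39.1, 37.6, 40.2 and 36.3 CPM at 1 mM. It was higher by 0.22 ± 0.05 (adjusted p = 0.00276), and by 0.06 with an adjusted p of 0.157 after the trend over transcript length and GC content was removed. KIF13A, a carrier of endosomal cargo, had 115, 116, 104 and 113 CPM at 10 mM and 94.1, 103, 66.3 and 84.2 CPM at 1 mM, a change of 0.37 ± 0.15 (adjusted p = 0.0398). That call was lost in 11 of 24 alternatives (adjusted p up to 0.139), 9 of them leaving out 1 library, and its change was 0.26 without replicate 3 at 1 mM.

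Of the 11 not called, the carriers KIF1B (mitochondria and synaptic vesicle precursors), KIF1C (secretory vesicles), KIF13B and KIF16B (early endosomes), the growth regulators KIF21A and KIF21B, KIF9, KIF26B and the minus-end motor KIFC3 had log2 fold changes between −0.26 and 0.35. KIF21B was closest to the threshold, at 0.35 ± 0.15 (adjusted p = 0.0504), with 6.97, 6.61, 7.04 and 6.08 CPM at 10 mM glucose and 5.78, 5.50, 3.67 and 6.04 CPM at 1 mM. Its groups did not overlap. Without replicate 1 with acetate KIF21B (adjusted p = 0.0231), KIF13B (0.0292) and KIF1C (0.0285) were called higher at 10 mM, and without both libraries that stood apart KIF13B (0.0373) and KIF1C (0.0361) were. KIF16B (−0.26 ± 0.11, adjusted p = 0.057), KIF9 (−0.25 ± 0.11, 0.0581) and KIF21A (−0.26 ± 0.12, 0.0756) lay below 0. The count of the rest called lower, 4, depended on single libraries and on length. It was 7 without replicate 3 at 1 mM, where KIF5B, KIF16B and KIF21A were added, and 7 without replicate 1 with acetate, where KIF9, KIF16B and KIF21A were added. It was 10 after the trend over transcript length and GC content was removed, where KIF3A, KIF5B, KIF9, KIF16B, KIF21A and KIFC3 were added.

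**Figure D4:**
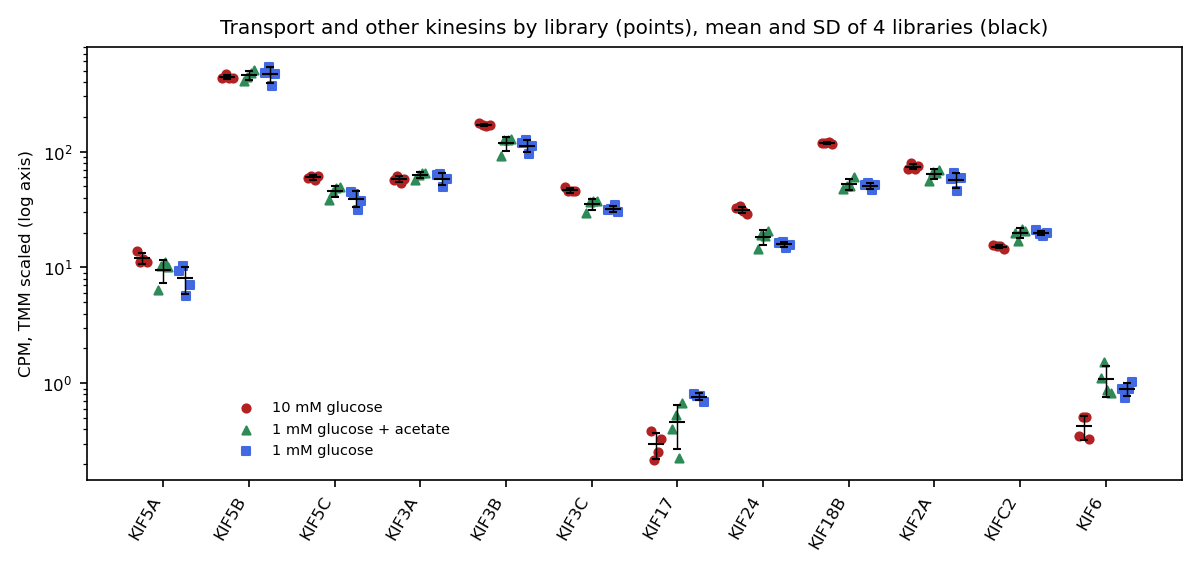
Level of 12 kinesins of the rest in each of the 12 libraries (points; CPM on a log axis), with mean and SD of 4 libraries in black. KIF5B lies near the same level in the 3 groups, at 372 to 541 CPM in all, and KIF18B, KIF24, KIF3B and KIF3C are highest at 10 mM glucose. KIF17 and KIF6 have their lowest means at 10 mM, and are under 1.6 CPM in every library. For KIF17 the 10 mM and acetate libraries overlap.

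In the contrast between the lists the libraries lay closer together at 10 mM glucose than in either low-glucose group. The mean log2 CPM of the 11 mitotic motors minus that of the 25 tested members of the rest was 2.68 ± 0.0286 at 10 mM, 1.64 ± 0.0971 with acetate and 1.55 ± 0.113 without (SD, n = 4 each). The highest values in the low-glucose groups were in the libraries that stood apart, 1.77 with acetate and 1.68 without. Summed, the mitotic motors had 1864 ± 49.5 CPM at 10 mM glucose, 811 ± 53.5 CPM in the acetate group and 775 ± 37.5 CPM at 1 mM. The rest had 1652 ± 44.8 CPM at 10 mM, 1478 ± 154 CPM with acetate and 1454 ± 158 CPM at 1 mM, with the lowest sums in the libraries that stood apart, 1260 and 1241 CPM. Per kb of transcript, the mitotic motors made up 62.3 ± 0.344% of kinesin CPM at 10 mM glucose, 44.6 ± 1.76% in the acetate group and 44.6 ± 2.94% at 1 mM. The highest shares in both low-glucose groups were also in these libraries, 47.1% with acetate and 48.6% at 1 mM.

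**Figure D5:**
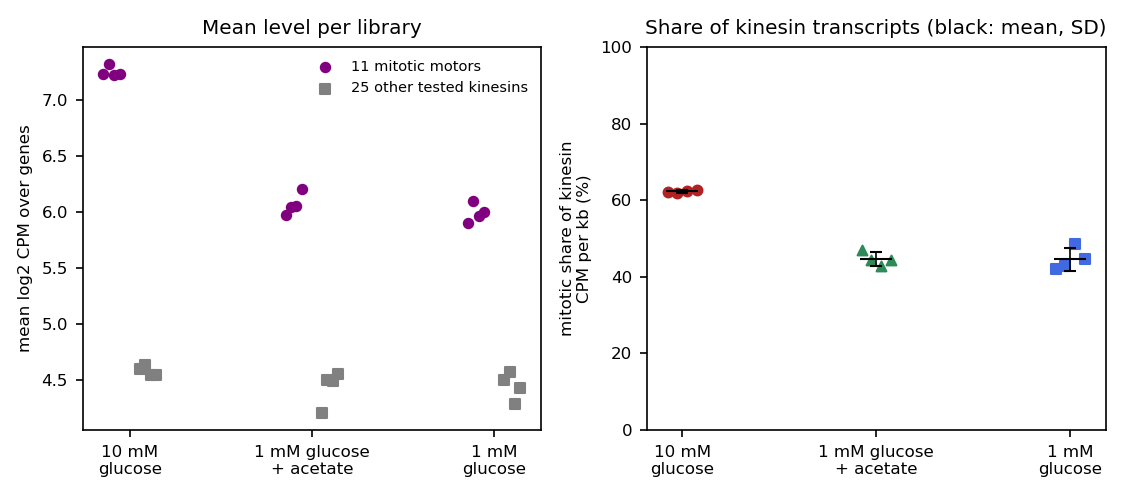
At left, mean log2 CPM of the 11 mitotic motors (circles) and of the 25 tested members of the rest (squares) in each library. At right, the share of mitotic motors in kinesin CPM per kb of transcript, with mean and SD of 4 libraries in black. The 10 mM glucose libraries stand at 61.9% to 62.7%, above all 8 libraries at 1 mM glucose with or without acetate.

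The order of kinesins by CPM per kb of transcript differed with glucose. At 10 mM glucose KIF20A led at 97.2 ± 3.21, ahead of KIF5B at 74.8 ± 2.98 and KIF2C at 68.6 ± 1.99 CPM per kb (SD, n = 4). KIF22 at 62.0 ± 1.25 and KIF23 at 61.8 ± 1.73 CPM per kb, the next in order, did not differ beyond their spread, nor did KIF4A at 32.5 ± 1.06 and KIF2A at 32.0 ± 1.71. At 1 mM glucose KIF5B led at 78.9 ± 11.8, then KIF2C at 48.7 ± 1.32 CPM per kb. KIF22 at 29.6 ± 3.24, KIF23 at 28.9 ± 1.35, KIFC3 at 25.9 ± 1.99, KIF2A at 24.6 ± 3.54 and KIF20A at 23.7 ± 2.00 CPM per kb followed, with overlapping SDs between neighbours. With acetate KIF5B was at 77.7 ± 7.22 and KIF2C at 45.0 ± 1.79 CPM per kb, followed by KIF23 at 29.4 ± 1.91, KIF22 at 28.7 ± 1.04, KIF2A at 27.9 ± 2.56 and KIF20A at 25.9 ± 1.41 CPM per kb, with overlapping SDs between these 4 neighbours.

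Partners of the mitotic motors were higher at 10 mM glucose. All 16 of those listed were called higher at 10 mM than at 1 mM glucose, against 33.7% of all genes. The 16 had a median log2 fold change of 1.23. DLGAP5, which guides kinetochore fibres with KIF11, rose by 1.74 ± 0.07 (edgeR adjusted p = 1.63e-11), RACGAP1, the centralspindlin partner of KIF23, by 1.21 ± 0.05 (2.92e-11) and TACC3, which cross-links kinetochore fibres, by 1.31 ± 0.06 (9.57e-11). CENPE, itself a kinesin, had a mean of 192 ± 21.9 CPM at 10 mM, against 80.9 ± 21.6 CPM at 1 mM, a change of 1.24 ± 0.16 (adjusted p = 8.57e-06). Among light chains, accessory subunits and adaptors of transport kinesins 21 were tested. Of these 5 were called higher and 10 lower (against 33.7% and 33.8% of all genes), with a median of −0.13. KLC3, a kinesin-1 light chain, had 5.22, 4.97, 6.05 and 5.17 CPM at 10 mM glucose, against 17.8, 14.0, 18.1 and 17.2 CPM at 1 mM, for a log2 fold change of −1.65 ± 0.09 (adjusted p = 7.33e-10). The light chain KLC1 had a mean of 88.5 ± 1.46 CPM at 10 mM, against 88.2 ± 1.87 CPM at 1 mM, and was not called (0.00 ± 0.05, adjusted p = 0.946). KLC2, another light chain, had a mean of 74.7 ± 2.82 CPM at 10 mM, against 91.0 ± 6.08 CPM at 1 mM, and was called lower (−0.29 ± 0.05, adjusted p = 0.000295). PLEKHM2 (−0.53 ± 0.05, 2.17e-07), which couples kinesin-1 to lysosomes, was also lower.

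Cytoplasmic dynein, with dynactin, moves cargo in the opposite direction. Of 27 tested genes of dynein, dynactin and their regulators, 15 were called higher and 7 lower (against 33.7% and 33.8% of all genes), with a median of 0.19. The most significant were CCDC99, a kinetochore adaptor of dynein also called Spindly, at 1.17 ± 0.06 (edgeR adjusted p = 4.52e-10), the dynein regulator NDEL1 at −0.63 ± 0.06 (1.45e-07) and the light chain DYNLT3 at 0.53 ± 0.06 (3.34e-06). Dynein's heavy chain DYNC1H1 averaged 782 ± 40.1 CPM at 10 mM glucose and 804 ± 186 CPM at 1 mM and was not called (−0.04 ± 0.19, adjusted p = 0.862).

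Acetate at 1 mM glucose left most kinesins without a detectable change: 2 of 36 tested were called, KIF15 higher and KIF26B lower. In this comparison 13.8% of all genes tested were called, 6.66% higher and 7.10% lower. The mitotic motors had a median log2 fold change of 0.02, between −0.11 and 0.39, and the rest one of 0.05, between −0.77 and 0.29, while the median of all genes was 0.00. Without TMM scaling 65.3% of the calls over all genes were higher, against 48.4% with it. This comparison shares its 1 mM libraries with the one above.

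KIF15 had 40.8, 46.3, 46.1 and 55.3 CPM in replicates 1 to 4 with acetate, against 34.1, 41.4, 32.9 and 35.2 CPM without. Replicate 1 with acetate lay below replicate 2 without, so the groups overlapped, and the log2 fold change was 0.39 ± 0.09 (edgeR adjusted p = 0.00877, and 0.00023 to 0.0418 over the alternatives, none of which lost the call). KIF11 had 101, 108, 112 and 126 CPM with acetate and 88.3, 106, 88.4 and 98.2 CPM without, a change of 0.23 ± 0.08 that missed the threshold (adjusted p = 0.0563). It was called without replicate 2 at 1 mM (0.29, adjusted p = 0.0181) and without replicate 1 with acetate (0.28, adjusted p = 0.0174). KIF20B averaged 64.6 ± 11.1 CPM with acetate and 53.0 ± 11.7 CPM without (0.29 ± 0.14, adjusted p = 0.211), and was called without replicate 2 at 1 mM (0.44, adjusted p = 0.0318). KIF20A had 82.1, 82.4, 78.0 and 88.9 CPM with acetate and 69.8, 76.9, 84.2 and 72.0 CPM without (0.13 ± 0.06, adjusted p = 0.198), and was called without replicate 3 at 1 mM (0.19, adjusted p = 0.0362). The count of mitotic motors called higher was therefore 1 to 3 when 1 library was left out, and 3 without both libraries that stood apart.

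The other mitotic motors lay near 0 with acetate. KIF2C had 131, 132, 122 and 133 CPM with acetate and 136, 140.1, 146 and 139 CPM without, all 4 libraries below the 4 controls, as in 8.20% of all genes (7.35% lay above), yet the change of −0.11 ± 0.05 was not called (adjusted p = 0.136). KIF18A (−0.10 ± 0.08, 0.423), KIF22 (−0.04 ± 0.07, 0.727), KIF4A (−0.03 ± 0.06, 0.797) and KIFC1 (−0.01 ± 0.05, 0.902) were slightly below 0, each given with its SE and adjusted p. KIF23 (0.02 ± 0.06, 0.819) and KIF14 (0.08 ± 0.13, 0.741) were slightly above. A p that misses the threshold does not show that these levels were equal.

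KIF26B, a kinesin-11 motor without ATPase activity that takes part in cell adhesion and Wnt5a signalling, had 2.00, 4.12, 3.82 and 3.18 CPM with acetate, against 6.51, 6.73, 3.98 and 5.22 CPM without. Replicate 1 with acetate was the lowest, replicate 3 was the lowest of the controls, and these are the libraries that stood apart. The log2 fold change was −0.77 ± 0.20 (edgeR adjusted p = 0.0177), and without both of these libraries the adjusted p was 0.000185. The call was lost without replicate 1 at 1 mM (0.0623), without replicate 4 with acetate (0.0502) and with only the 8 libraries compared (0.0664), in each case an adjusted p. KIF17 had 11, 14, 6 and 18 counts with acetate and 20, 19, 20 and 17 counts without, a change of −0.73 ± 0.26 (adjusted p = 0.0821). Its CPM did not overlap, and it was called without replicate 4 with acetate (−0.97, adjusted p = 0.0427).

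Of the division-linked members of the rest, KIF18B averaged 52.1 ± 5.37 CPM with acetate and 50.6 ± 2.65 CPM without (0.04 ± 0.07, edgeR adjusted p = 0.72). KIF24 had 14.6, 19.0, 18.8 and 20.8 CPM with acetate and 16.2, 16.5, 14.7 and 15.7 CPM without (0.21 ± 0.09, 0.152), with replicate 1 with acetate below all controls and the other 3 above them. Without that replicate KIF24 was called at 0.31 (adjusted p = 0.00892), and so was KIF3C, at 0.21 (adjusted p = 0.0248). Without both libraries that stood apart KIF24 (adjusted p = 0.00699), KIF3C (0.00206), KIF5C (0.0348) and KIF13B (0.04) were called higher with acetate. KIF2A (0.18 ± 0.09, 0.226) and KIF4B (−0.44 ± 0.36, 0.459) were not called. Among the transport motors KIF5B averaged 456 ± 42.4 CPM with acetate and 464 ± 69.6 CPM without (−0.02 ± 0.09, 0.899), and KIF3B 118 ± 17.1 CPM with acetate and 112 ± 12.9 CPM without (0.07 ± 0.10, 0.706). KIF1C had 106, 122, 124 and 125 CPM with acetate and 136, 125, 125 and 130.5 CPM without. The highest library with acetate, at 124.8 CPM, lay just under the lowest without, at 125.1 CPM, with a change of −0.12 ± 0.06 (adjusted p = 0.192).

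None of the 16 partners of mitotic motors was called with acetate, by edgeR at the adjusted threshold, and CIT, the citron kinase, came closest at 0.34 ± 0.12 (adjusted p = 0.085, unadjusted p = 0.016, the single member with an unadjusted p under 0.05). Among dividing-cell markers 1 of 7 was called, MCM2 of the replication helicase, at 0.31 ± 0.06 (adjusted p = 0.00479). Of 21 transport adaptors tested 2 were called higher and 3 lower, against 6.66% and 7.10% of all genes. TRAK1, which joins mitochondria to kinesin-1 (0.30 ± 0.07, 0.0114), and FEZ1 (0.24 ± 0.06, 0.0215) were the 2 called higher. Of 27 tested genes of dynein, dynactin and their regulators 1 was called higher, DYNLT3 (0.24 ± 0.06, 0.0253). The 2 called lower were DYNC1LI1 (−0.19 ± 0.05, 0.0154) and NDEL1 (−0.18 ± 0.06, 0.043).

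The third comparison, 10 mM glucose against 1 mM glucose with acetate, tests gene by gene whether the glucose and the acetate changes differed, and shares libraries with both. All 11 mitotic motors were higher at 10 mM glucose than with acetate, with a median log2 fold change of 1.14 and a range of 0.61 to 1.91, and all kept the call in the 24 alternatives. Over all genes tested 62.8% were called, 31.0% higher and 31.8% lower, and the median was 0.00. KIF20A differed by 1.91 ± 0.06 (edgeR adjusted p = 5.28e-12), KIFC1 by 1.52 ± 0.05 (4.37e-12) and KIF4A by 1.32 ± 0.06 (6.07e-11). KIF11 (1.20 ± 0.08, 4.23e-09), KIF20B (1.18 ± 0.14, 4.95e-06), KIF14 (1.14 ± 0.13, 3.15e-06), KIF22 (1.11 ± 0.07, 2.59e-09) and KIF23 (1.07 ± 0.06, 5.57e-10) formed the middle of the list. KIF18A (1.00 ± 0.08, 4e-08), KIF15 (0.96 ± 0.09, 2.07e-07) and KIF2C (0.61 ± 0.05, 5e-08) differed least. So KIF15, the mitotic motor called higher with acetate, still had 91.4 ± 2.81 CPM at 10 mM glucose, against 47.1 ± 6.02 CPM with acetate (SD, n = 4 each).

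Of the rest, 9 were called higher and 5 lower at 10 mM glucose than with acetate, with a median of 0.16. KIF18B (1.18 ± 0.07, adjusted p = 1.26e-09), KIF24 (0.78 ± 0.09, 3e-06), KIF4B (1.21 ± 0.32, 0.00407), KIF3B (0.53 ± 0.10, 0.000273), KIF3C (0.40 ± 0.08, 0.000299) and KIF5C (0.40 ± 0.10, 0.0031) were higher, as was KIF26B (0.72 ± 0.20, 0.00496). KIF1C (0.24 ± 0.06, 0.00222) and KIF7 (0.16 ± 0.05, 0.0213) were higher by small amounts, and after removal of the length and GC trend both lost the call (adjusted p 0.242 and 0.897). KIF6 (−1.34 ± 0.25, 0.000249) and KIFC2 (−0.39 ± 0.07, 0.000301) were lower in every library, as were 30.1% of all genes, while 30.8% were higher in every library. KIF16B (−0.29 ± 0.11, 0.0372), KIF21A (−0.33 ± 0.12, 0.0315) and KIF27 (−0.39 ± 0.14, 0.0283) were called lower with overlapping groups. The count called lower was 2 without replicate 2 or 4 with acetate or replicate 3 or 4 at 10 mM, 3 without replicate 3 with acetate or replicate 1 at 10 mM, and 2 with library totals, where 13 were called higher and 60.8% of calls over all genes were higher, against 49.4%. KIF2A (0.20 ± 0.09, 0.0755), KIF5B (−0.05 ± 0.09, 0.636) and KIF17 (−0.64 ± 0.32, 0.0944, with overlapping groups) were not called. Without replicate 3 at 1 mM, KIF2A (adjusted p = 0.0144), KIF13A (0.0432) and KIF21B (0.029) were called higher at 10 mM than with acetate. Without both libraries that stood apart KIF2A (0.0221) and KIF13A (0.00535) were called higher and KIF3A lower (0.00849).

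Partners and adaptors are given for this comparison as well. All 16 partners of mitotic motors were called higher at 10 mM glucose than with acetate (median 1.24), with the smallest p for DLGAP5 (1.71 ± 0.07, edgeR adjusted p = 2.99e-11), RACGAP1 (1.23 ± 0.05, 3.64e-11) and GTSE1 (1.52 ± 0.07, 9.2e-11), a microtubule regulator that inhibits KIF2C. All 7 dividing-cell markers were called higher too (median 1.29). Of 21 adaptors tested 5 were called higher and 10 lower, against 31.0% and 31.8% of all genes. KLC3 (−1.83 ± 0.09, 3.1e-10), PLEKHM2 (−0.48 ± 0.05, 7.91e-07) and RHOT1, a mitochondrial anchor of kinesin-1 (−0.55 ± 0.06, 9.63e-07), were all lower. Of 27 tested genes of dynein, dynactin and their regulators 12 were called higher and 5 lower. The smallest p were those of CCDC99 (1.08 ± 0.06, 1.4e-09), NDE1 (0.62 ± 0.06, 6.02e-07) and NDEL1 (−0.45 ± 0.06, 7.19e-06).

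The 6 kinesins not tested were at or near 0. KIF19, KIF25 and KIF26A had no count in any library, which at 3 counts allows up to 0.109 to 0.123 CPM per library, for counting error only. KIF1A, a carrier of synaptic vesicle precursors in neurons, had 15 counts in all, at most 3 in a library, and KIF12 had 76, at most 11 in a library. Levels this low cannot be compared between groups at this depth.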

How the data were processed

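The authors deposited raw counts per RefSeq transcript for 12 libraries, whole numbers that were not normalized; the build is hg19, per the submitters' processing notes, and for the aligner, counting program and strand setting the entry is: not given in the sources used here. The transcript the authors marked stood for each of the 22257 genes, or the one with the highest total where none was marked; all 42 kinesins had a mark, and 10 had several transcripts, which were not added up. Groups came from the sample titles.

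Genes were filtered with filterByExpr, scaled by TMM and tested over the 12 libraries with edgeR 4.0.16 (R 4.3.3, quasi-likelihood F test, Benjamini-Hochberg over 14416 genes, called under 0.05). SE is the log2 fold change divided by the root of F. The common biological coefficient of variation was 8.51%. Lengths came from GENCODE transcripts, matched by accession for 40 kinesins and by symbol for KIF18B and KIF6. The procedure was tested on simulated data with the same spread for all genes and no library that stood apart. That test therefore does not cover the trend with transcript length. No 2 libraries of the same group agreed within sampling noise. The kinesins and partner lists were chosen with earlier results of these data known. All mitotic motors, called members of the rest and the 3 called members with the smallest p of each partner list are named, except 1 member that is not reported here; KLC1, KLC2, KIFAP3, DYNC1H1, CENPE and CIT are named outside it, a choice made with their values known. Alternatives were other scalings, filters and tests (DESeq2 1.42.0, limma 3.58.1), the replicate block, removing the length and GC trend, other members and leaving out libraries.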

Additional observations from a re-analysis of the deposited data

Results flagged for a closer look

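Of 108 groups of 4 libraries, 9 had 1 library far from the other 3 by Dixon's ratio, and chance flags about 1 in 20 groups. Replicate 1 with acetate was low for 5 kinesins of the rest: KIF13B at 33.9 CPM (others 52.0 to 54.9), KIF16B at 40.5 CPM (55.7 to 57.9), KIF1C at 106 CPM (122 to 125), KIF3B at 92.1 CPM (125 to 128) and KIF3C at 29.5 CPM (36.4 to 37.4). This is a library that stood apart by its relation to transcript length. At 10 mM glucose KIF11 was high in replicate 2, at 275 CPM against 250.1 to 252 CPM in the others, and KIF5B was high in the same library, at 466 CPM against 429 to 432 CPM. KIF3C was high in replicate 1 at 10 mM, at 49.6 CPM against 45.3 to 45.5 CPM, and KIF4A was low in replicate 3, at 135 CPM against 143 to 144 CPM.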

How the results depend on the processing

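Over 24 alternatives no kinesin call changed sign. Of the 25 calls for glucose 21 held, of the 2 for acetate 1, KIF15, and of the 25 for 10 mM glucose against acetate 20, each over the alternatives that tested the gene (23 or 24). The cause of the changes below was not tested.

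For glucose, the median of the mitotic motors was 1.43 with library totals, 1.22 with 4 kinesins moved to them and 1.27 to 1.35 when 1 library was left out; the median of the rest was 0.26 with library totals. The rest called lower were 1 with a filter at 5 CPM, which removes the low kinesins, 10 with the length and GC trend removed, 9 with it removed in a replicate block, 7 without both libraries that stood apart and 3 to 7 leaving out 1. For acetate, mitotic motors called higher were 2 with library totals, DESeq2, the replicate block and the trend removed without or with the block, 3 without both libraries and 1 to 3 leaving out 1; called lower, 1 with DESeq2 and 1 with the trend removed. The rest called higher were 2 with the trend removed, 1 with the block added, 4 without both libraries and 0 to 2 leaving out 1; called lower, 0 at 5 CPM and with only the 8 libraries compared, 2 with the trend removed with or without the block, and 0 to 1 leaving out 1. For 10 mM glucose against acetate, the median of the mitotic motors was 1.25 with library totals and 1.09 to 1.23 leaving out 1; the rest called lower were 2 with library totals, 3 at 5 CPM, 6 without both libraries and 2 to 5 leaving out 1, and the median of the rest was 0.0059 with the trend removed and 0.0054 with the block added.

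Replicate numbers did not pair the libraries (r of deviations −0.365 to 0.27). With the replicate block KIF13A lost its glucose call (0.38, adjusted p = 0.0509), KIF16B that against acetate (−0.29, 0.0556), KIF11 gained one with acetate (0.23, 0.0464) and KIF2A one against acetate (0.20, 0.0492). Over all genes, 1984 were called with acetate, 3898 with the trend removed, 3545 with the block added, 1053 with only the 8 libraries, 3712 without both libraries and 1198 to 2980 leaving out 1. Depth limits KIF17, KIF6 and KIF4B, at under 1.6 CPM.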
